A study of Caenorhabditis elegans with 12 samples.

Results

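The regions described here are autosomal MRG-1 sites that were called in germline-less glp-4(bn2) animals and in no N2 sample. Overlapping peaks of 6 MRG-1 ChIP-seq samples were merged into 8226 sites, and the regions were selected on these calls: they lie on chromosomes II, III, IV or V and hold peaks from 2 or 3 glp-4(bn2) samples and from no N2 sample. The rule found 385 glp-4(bn2)-only sites among the 5548 merged sites of these chromosomes (6.94%). Since the calls in all 6 samples chose them, their absence from N2 and their folds in glp-4(bn2) are given as descriptions. The same rule finds 85 sites on chromosome I (4.58% of its merged sites) and 220 on X (26.8%), which are not among the 385 and would bring the total to 690 (8.39% of 8226).

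The tested animals were of strain SS104, genotype glp-4(bn2) I, in 3 replicates, and the wild-type N2 strain gave 3 replicates. Both strains were kept at 15° and, after bleaching, grown from L1 larvae at 25° to the L4 stage, so that the temperature was the same in both. Whole worms were used, and MRG-1 was precipitated with an antibody from Novus. The bn2 allele is temperature-sensitive, and at 25° the mutants lack a germline. The presence or absence of germ cells cannot be read from peak lists, and the 6 input samples were not analysed here. The N2 animals contain somatic cells as well as a germline, and with whole worms a site that is unbound in N2 cannot be told apart from a site whose somatic signal lay below the calling threshold there.

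MRG-1 is a chromodomain protein, the *C. elegans* ortholog of mammalian MRG15. Its chromodomain family is known for binding nucleosomes methylated at lysine 36 of histone H3, a mark laid down over transcribed genes, and human MRG15 belongs to both acetyltransferase and deacetylase complexes. In *C. elegans*, MRG-1 is needed in the germline for germ cell development, chromosome pairing and repression of X-linked genes, and it is also present in somatic cells. The autosomes of *C. elegans* have gene-rich centers with little recombination and arms that hold more repeats and recombine more. Genes at the sites were not assigned and no sequence is shown, because no annotation or genome of the ce10 build was used here.

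Each list gives peaks called by the authors with MACS2 at a q-value of 0.05, with a fold enrichment over the background estimated at the peak. The lists held between 7303 and 7584 peaks in glp-4(bn2) and between 7073 and 7737 in N2, of which 4813 to 5018 and 4861 to 5280 lay on chromosomes II to V. The bases called on these chromosomes came to 9.80, 10.8 and 9.34 Mb in glp-4(bn2) replicates 1, 2 and 3, and to 11.4, 12.6 and 11.02 Mb in N2 replicates 1, 2 and 3, so that every N2 list covered more of these chromosomes than every glp-4(bn2) list. Read totals are not part of the lists, and the depth is unknown from them.

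The glp-4(bn2)-only sites were weak in every list that called them. Replicate 1 called 321 of the 385, replicate 2 called 356 and replicate 3 called 316. The median of the highest fold in a site was 1.73, 1.80 and 1.73 in glp-4(bn2) replicates 1, 2 and 3. The 2999 sites of chromosomes II to V that 2 or 3 glp-4(bn2) samples shared with any N2 sample had medians of 2.66, 2.95 and 2.70. A site with more peaks takes its highest fold over more peaks, and the part of this in the difference was not tested. A fold is comparable only within its own list, so each was also ranked there as a percentile among all peaks of the list. The glp-4(bn2)-only sites stood at median percentiles of 20.7, 24.3 and 20.5, and only 22 of 321, 25 of 356 and 21 of 316 calls lay above the median peak of replicates 1, 2 and 3. No site ranked higher than percentile 77.5. Low ranks were not particular to these sites. Sites of the same chromosomes called in at least 2 N2 and no glp-4(bn2) sample also ranked low in the N2 lists. Their median percentiles were 24.0, 33.5 and 24.1 in N2 replicates 1, 2 and 3.

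**Figure D1:**
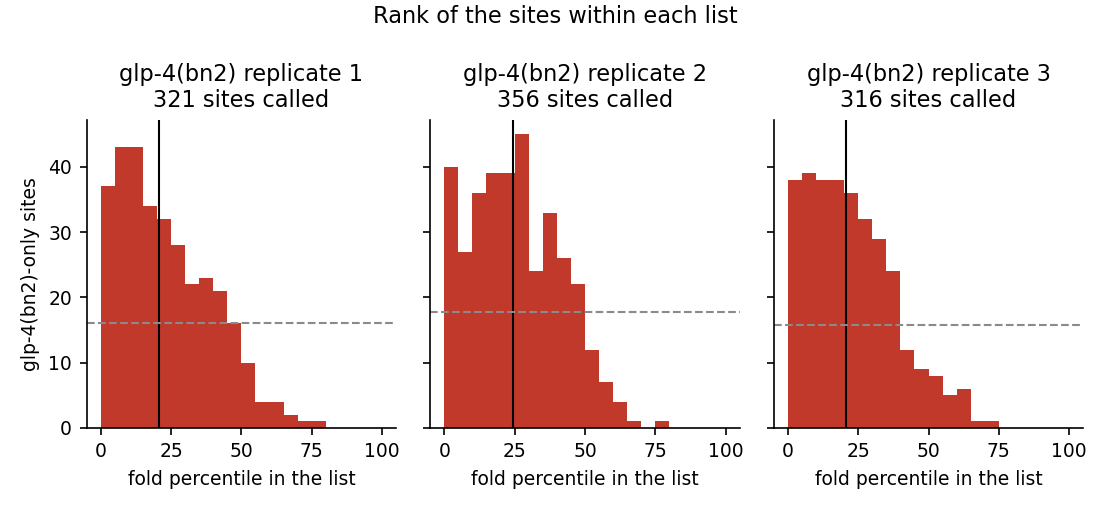
Fold percentile of the glp-4(bn2)-only sites within the list of each glp-4(bn2) replicate (x axis, all peaks of the list ranked from 0 to 100) against the number of sites (y axis, bins of 5 percentiles). The black line is the median (20.7, 24.3 and 20.5), the dashed line is the height of an even spread, and few sites lie right of percentile 50.

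The q-values belong to the calls that selected the sites and are given as a description. In at least 2 glp-4(bn2) samples, 361 of the 385 sites had a q-value of at most 0.001, 261 (67.8%) a q-value of at most 1e-05, and 75 (19.5%) one of at most 1e-10. Among the 2999 sites called in both strains by the above rule these shares were 99.1%, 95.2% and 79.2%. The signal of N2 at the sites is not in the lists.

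The sites were narrow and mostly simple. Their width ranged from 327 to 3705 bp with a median of 842 bp, and in total they covered 0.377 Mb. The 753 N2-only sites of the same chromosomes, called in at least 2 N2 and no glp-4(bn2) sample (13.6% of the 5548), had a median width of 822 bp, and the 2449 sites called in all 6 samples one of 3195 bp. A site shared by more samples is the union of more peaks, which can only widen it. How much of the difference in width comes from this was not tested. In replicates 1, 2 and 3, a single peak made up 90.3%, 93.3% and 89.2% of the called glp-4(bn2)-only sites, against 62.6%, 72.9% and 59.9% of the sites called in all 6 samples. N2-only sites were alike, with a single peak in 92.6%, 97.7% and 89.9% of those called in N2 replicates 1, 2 and 3. The rule did not use summits. Within a site, the strongest summits of the calling glp-4(bn2) samples spanned a median of 188 bp, and in 268 of 385 sites (69.6%, 95% Wilson interval 64.8% to 74.0%) they lay within 300 bp of each other. In the wider sites called in all 6 samples the spread was 159 bp. As a share of the width it was 23.5% in glp-4(bn2)-only sites and 6.51% in sites called in all 6. These spreads are not fully alike, since they cover 2 or 3 samples in the first class and always 3 in the second. The bases called by at least 2 glp-4(bn2) samples made up a median of 71.5% of a site. Every site holds such bases by construction, because peaks of different samples were joined only where they overlapped. That overlap also limits how far apart the summits of a narrow site can lie.

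All 3 glp-4(bn2) samples called 223 of the sites and 2 samples called the other 162. Of these 162, 64 lacked a call in replicate 1, 29 in replicate 2 and 69 in replicate 3. Sites called in 3 samples had a median width of 1045 bp and those called in 2 samples 616 bp. The order of folds among the sites called in 3 samples was only partly shared between replicates. Spearman's rho over these 223 sites was 0.42 for replicates 1 and 2, 0.32 for 1 and 3, and 0.39 for 2 and 3, while over the sites called in all 6 samples it lay between 0.95 and 0.96. The 223 sites span a small range of folds, and sites are not independent replicates. Wider sites ranked higher, with a Spearman correlation of 0.44 between width and mean percentile across the 385 sites of the same 3 libraries. Width is the union of the called peaks and the percentile is that of the highest peak in them, so these measures are not independent.

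Just outside the rule lay 388 sites of chromosomes II to V that a single glp-4(bn2) sample and no N2 sample called, 183 of them in replicate 2. Their median width was 384 bp and their median percentiles were 11.8, 13.1 and 9.58 in replicates 1, 2 and 3. On the other side, 150 sites had calls from 2 or 3 glp-4(bn2) samples but also from 1 N2 sample. Those had a median width of 905 bp and median percentiles of 30.9, 33.1 and 39.6, above the 385 sites in each list. Just inside, the 2 samples that called the weakest glp-4(bn2)-only site, on chromosome V from 20717756 to 20718157 of ce10, gave folds of 1.48 in replicate 1 and 1.46 in replicate 2. Coordinates here and below count from 1.

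Chromosome V held 130 of the 385 sites, III held 91, IV held 85 and II held 79. As a share of the merged sites of each chromosome this was 10.7% on V, 5.47% on III, 6.17% on IV and 6.11% on II. Chromosome V thus had the largest share of the 4, although its 6.22 sites per Mb were close to the 6.60 of III, since V has fewer merged sites for its length. The share of N2-only sites was 13.8% on V, 12.9% on III, 13.8% on IV and 13.9% on II. All 3 glp-4(bn2) samples called 87 of 130 sites on V (66.9%, Wilson interval 58.5% to 74.4%), 46 of 79 on II (58.2%, interval 47.2% to 68.5%) and 48 of 85 on IV (56.5%, interval 45.9% to 66.5%). On III this was 42 of 91 (46.2%, interval 36.3% to 56.3%).

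Along the chromosomes, 165 of the 385 sites (42.9%, Wilson interval 38.0% to 47.8%) lay on arms, taken as the outer 25% at each end, and 220 in centers. Sites called in all 6 samples lay on arms in 48.2% of cases (interval 46.2% to 50.2%), N2-only sites in 51.1% and all 5548 merged sites in 53.9%. The intervals cover counting error only, and neighbouring sites are not independent. The share was lowest on IV, where 27 of 85 glp-4(bn2)-only sites lay on arms (31.8%, interval 22.8% to 42.3%), against 48.9% of the sites called in all 6 samples. On V the share was 62 of 130 (47.7%, interval 39.3% to 56.2%), against 43.1%. Chromosomes II and III gave 44.3% and 45.1%, against 47.7% and 51.5% of the sites called in all 6 samples. Among all merged sites the arm share was 55.8% on II, 58.3% on III, 50.9% on IV and 49.3% on V. In 10 bins of equal length along the chromosomes, the share of the glp-4(bn2)-only sites ranged from 8.05% to 12.7%, with the highest value in bin 6. Sites on arms and in centers ranked alike by fold, with median percentiles of 23.1 and 21.2 averaged over the calling samples. With a narrower center, from 33.3% to 66.7% of the length, which widens the arms by construction, the arm share was 61.8%. The shares of the other classes with these borders are not given here, so this value has no reference.

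**Figure D2:**
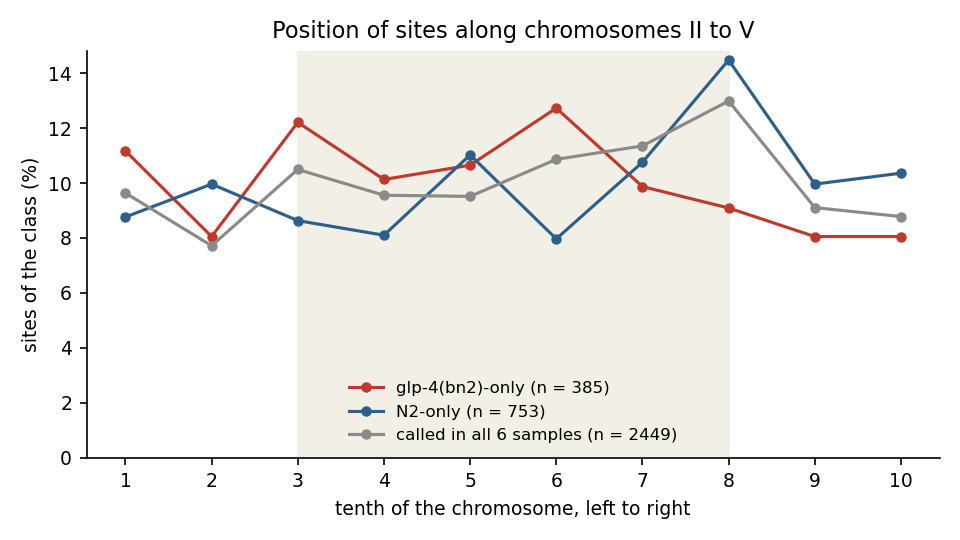
Share of each class of sites (y axis, percent of the class) in each of 10 bins of equal length along chromosomes II to V (x axis, left to right, the 4 chromosomes combined). The shaded band is the center (25% to 75% of the length), and the red line of the 385 glp-4(bn2)-only sites stays between 8.05% and 12.7%.

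Most piRNA genes, which give rise to the small RNAs that guard the germline genome, lie in a pair of regions on chromosome IV, taken here as 4.5 to 7 Mb and 14 to 17 Mb. The first held 11 of the 85 glp-4(bn2)-only sites of IV and 129 of its 1377 merged sites. The second held 5 of the 85 and 73 of the 1377.

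The glp-4(bn2)-only sites lay farther from N2 sites than N2-only sites lay from glp-4(bn2) sites. The gap to the nearest site with a call in any N2 sample had a median of 5831 bp, and in 25% of cases it was at least 15313 bp. For N2-only sites, the mirrored gap to the nearest site with a call in glp-4(bn2) had a median of 1369 bp. Over all 5548 merged sites the median gap was 537 bp to the nearest other site with an N2 call. To the nearest other site with a glp-4(bn2) call it was 700 bp. A site called in both strains lay within 1000 bp of 69 of the 385 glp-4(bn2)-only sites (17.9%, Wilson interval 14.4% to 22.1%) and of 330 of the 753 N2-only sites (43.8%, interval 40.3% to 47.4%). Within 5000 bp the shares were 44.7% and 73.2%. Of all 5548 merged sites, 50.6% had another site called in both strains within 1000 bp and 75.6% within 5000 bp. A site called in all 6 samples lay within 5000 bp in 122 of 385 cases (31.7%, interval 27.2% to 36.5%), and in 489 of 753 cases for N2-only sites (64.9%). Over all 5548 merged sites this share was 66.6%, so N2-only sites were near the general share and glp-4(bn2)-only sites below it. The N2 lists cover more bases of these chromosomes, and the part of this in the gaps was not tested. On X, where N2-only sites made up 1.95% of the merged sites, the median gap of the glp-4(bn2)-only class to an N2 site was 6451 bp. Among the autosomes the median gap was longest on V with 9150 bp, and shortest on IV with 2854 bp. The most isolated site, chosen after its value was seen, lies on chromosome V from 16158884 to 16159592, at 130420 bp from the nearest site with an N2 call.

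**Figure D3:**
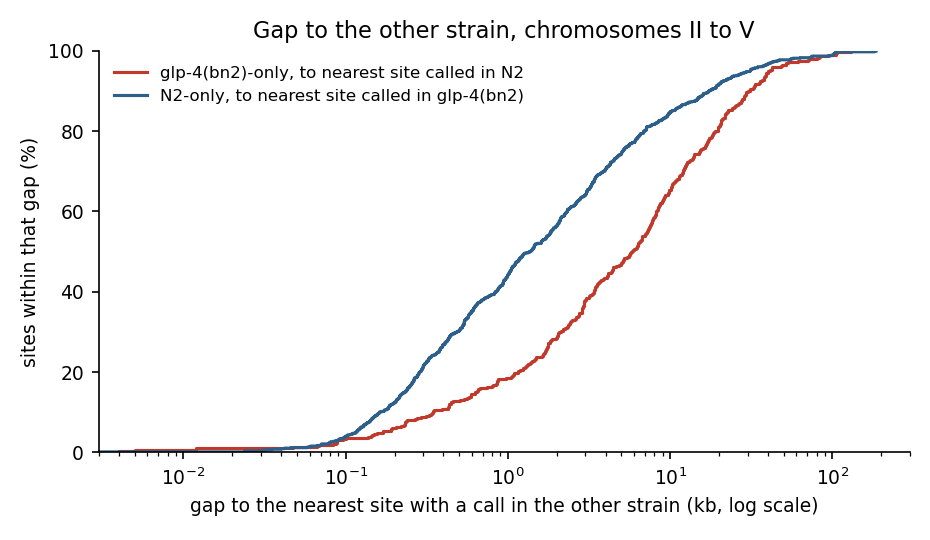
Cumulative share of sites (y axis, percent) by the gap to the nearest site with a call in the other strain (x axis, kb, log scale) on chromosomes II to V. The curve of the 385 glp-4(bn2)-only sites (median 5831 bp) lies right of that of the 753 N2-only sites (median 1369 bp).

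In the order of sites along the chromosome, the sites next to glp-4(bn2)-only sites were often of the same kind. Of 769 such next sites, 216 (28.1%) were glp-4(bn2)-only as well and 147 (19.1%) had been called in a single glp-4(bn2) sample. These kinds make up 6.94% and 6.99% of all sites on II to V, and 4.84% and 5.86% of the sites next to a site called in all 6 samples. Sites with calls in N2 samples only were 9.36% of the next sites, against 25.0% of all sites. Another glp-4(bn2)-only site lay within 1000 bp of 113 of the 385 (29.4%) and within 5000 bp of 181 (47.0%, Wilson interval 42.1% to 52.0%). N2-only sites, which are more numerous, lay within 5000 bp of another N2-only site in 49.9% of cases, and glp-4(bn2)-only sites on X in 51.8% of cases. Of the 1505 sites next to N2-only sites, 43.7% had calls in N2 samples only, against 25.0% of all sites on II to V.

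Chained over gaps of at most 5000 bp, 181 of the sites formed 75 groups, and the other 204 stood alone. There were 56 pairs, 12 groups of 3, 3 of 4, 3 of 5 and 1 of 6. Of the 106 adjacent pairs in these groups, 86 had no other site between them and 5 had a site with an N2 call. The stretch around a site between the nearest sites with an N2 call had a median length of 39436 bp, and 80 such stretches held at least 2 of the sites. Around N2-only sites the stretch between sites with a glp-4(bn2) call had a median of 15964 bp. The median percentile was 23.1 for grouped sites and 20.8 for single ones, a difference that was not tested.

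The largest group lies on the left arm of chromosome V from 2219482 to 2235269. Its 6 sites cover 8653 of 15788 bp, and 5 of them were called in all 3 glp-4(bn2) samples. The strongest of the 6, from 2231843 to 2233717, had folds of 2.299, 2.60 and 2.48 in glp-4(bn2) replicates 1, 2 and 3, at percentiles 54.6, 58.4 and 60.5. It is also the highest-ranking site of chromosome V by its weakest replicate. The neighbour from 2233828 to 2235269, separated by 110 bp, had folds of 1.68, 2.17 and 2.04. The site from 2228490 to 2230796 had folds of 2.14, 2.14 and 1.83, and replicates 1 and 3 split it into 3 peaks each. From 2219482 to 2221298 the folds were 2.05, 2.37 and 1.87. The remaining pair was weaker, with folds of 1.53, 1.65 and 1.56 from 2227561 to 2228348, and of 1.42 and 1.78 in replicates 2 and 3 from 2222537 to 2222960. The nearest merged sites with an N2 call ended 25509 bp to the left and began 20299 bp to the right. In all, the stretch between these sites ran over 61596 bp and held 8 glp-4(bn2)-only sites, more than any other, of which 7 were called in all 3 samples. The next groups, of 5 sites each, lie on chromosome II from 2979550 to 2990347 and on chromosome III from 3521926 to 3526646 and from 3772246 to 3780898. The third of these has 1 site with an N2 call between its members.

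**Figure D4:**
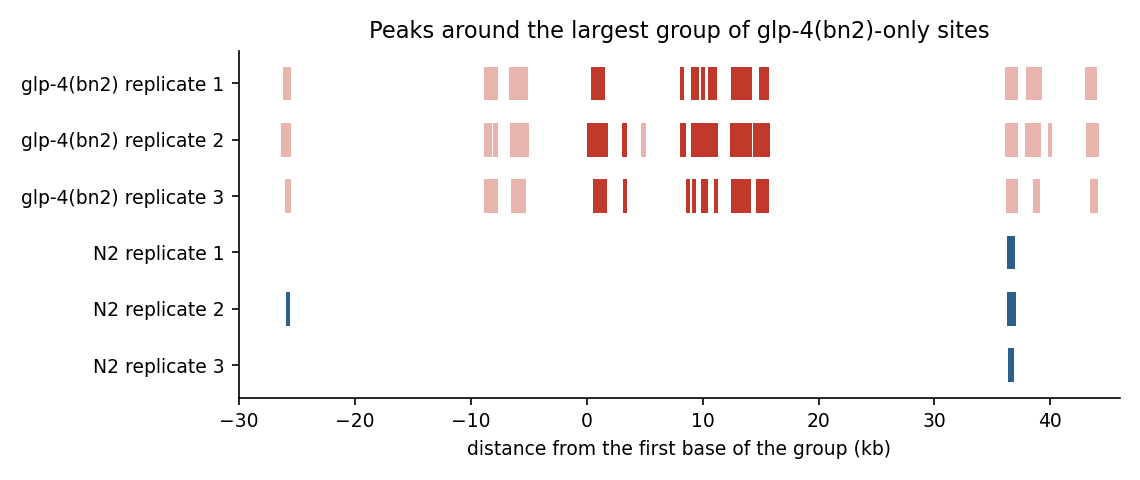
Peaks of each sample (rows) around the largest group of glp-4(bn2)-only sites, by distance from the first base of the group (x axis, kb). Dark red bars are peaks in the 6 sites of the group, light red bars are other glp-4(bn2) peaks and blue bars are N2 peaks. The nearest merged sites with an N2 peak lie 25509 bp to the left and 20299 bp to the right of the group.

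The strongest site of all lies alone on the left arm of chromosome II from 1818918 to 1820044. Its folds were 3.49, 4.12 and 3.16 in glp-4(bn2) replicates 1, 2 and 3, at percentiles 76.4, 77.5 and 74.1, with summits between 1819461 and 1819645. The nearest site with an N2 call was 40324 bp away and the nearest site called in all 6 samples 153243 bp away. The next site of chromosome II, from 11170531 to 11171825, had folds of 2.47, 2.46 and 2.61 and lay 233 bp from a site with an N2 call. The third, from 6446393 to 6447650, had folds of 2.01, 2.21 and 2.15 and lay 3142 bp from a site called in all 6 samples. These sites were thus found both far from sites called in N2 and beside them.

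On chromosome III the 3 strongest sites by their weakest replicate all lay in the center. The first, from 5578422 to 5580872, had folds of 2.60, 3.02 and 2.64 and lay 6120 bp from a site called in all 6 samples. From 4365260 to 4367688 the folds were 3.02, 2.62 and 2.38. The third ran from 8557887 to 8558925 with folds of 2.23, 2.38 and 2.48, 4016 bp from another glp-4(bn2)-only site and 38837 bp from the nearest site with an N2 call.

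On chromosome IV the leading site was also the widest of the 385. It ran over 3705 bp from 3539935 to 3543639, each glp-4(bn2) sample called it as 2 peaks, and its highest folds were 2.23, 2.48 and 2.26. The site from 15513395 to 15514730, inside the second piRNA region, had folds of 2.68, 2.79 and 2.01, and stood at percentile 39.8 in replicate 3. The site from 4787096 to 4787792, inside the first, had folds of 2.03, 2.18 and 1.98. The highest percentile among these 3 sites was 65.1.

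On chromosome V, beside the site of the largest group, the site from 6235097 to 6235982 had folds of 2.17, 2.43 and 2.23, and the site from 1628290 to 1629309 had folds of 2.57, 2.66 and 2.07. The second of these lay 139192 bp from the nearest site called in all 6 samples. The narrowest of the 385 sites is also on V, from 632580 to 632906, with folds of 1.65 and 1.53 in replicates 2 and 3 and no call in replicate 1.

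The rule did not use the folds of sites called in all 6 samples, and these were compared between the strains around the glp-4(bn2)-only sites. The choice of nearby sites still depended on the rule. A site counted as nearby only where a site with glp-4(bn2) calls and no N2 call lay within 5000 bp. The comparison therefore cannot show whether binding differed apart from the calls that chose the sites. In each sample the 2449 sites of chromosomes II to V called in all 6 were ranked by fold from 0 to 100, and the 124 within 5000 bp of a glp-4(bn2)-only site were set against the other 2325. The nearby sites stood above the others by 5.53, 5.68 and 4.99 percentiles in glp-4(bn2) replicates 1, 2 and 3, and by 0.816, 0.658 and 1.38 in N2 replicates 1, 2 and 3. The groups did not overlap. The difference was 4.45 percentiles, from 5.40 ± 0.361 in glp-4(bn2) and 0.953 ± 0.381 in N2 (SD over 3 samples per strain). A two-sided exact permutation test gave p = 0.1, the lowest possible with 3 samples in each strain. Benjamini-Hochberg adjustment over 3 such tests, of this difference, of called length and of arm position, gave 0.15. The later comparison around N2-only sites was not among the 3. Called length follows from the peak borders, which the merging used, and is given as a description. In glp-4(bn2) replicates 1, 2 and 3 the nearby sites held 1.15, 1.15 and 1.17 times as many called bases as the others, against 1.07, 1.08 and 1.08 times in N2 replicates 1, 2 and 3. With windows of 250 bp around summits in place of whole peaks, which also changes which sites count as glp-4(bn2)-only, the difference in percentiles turned to -0.99 (exact permutation test, p = 0.1).

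The difference was largest for the closest sites. These were chosen by their gap to a site called only in glp-4(bn2), so the values by distance are descriptions. Sites are not replicates of a strain. For the 40 sites called in all 6 samples that lay within 1 kb of a glp-4(bn2)-only site, the mean percentile was 50.4, 50.9 and 51.7 in glp-4(bn2) replicates 1, 2 and 3, and 40.4, 41.2 and 40.7 in N2 replicates 1, 2 and 3. These closest sites thus held a middle rank in glp-4(bn2) and a lower one in N2, and 31 of the 40 (77.5%) had a higher mean percentile in glp-4(bn2), against 47.1% of all 2449. For the 84 sites between 1 and 5 kb the means were 57.1 ± 0.788 in glp-4(bn2) and 55.8 ± 0.606 in N2 (SD, n = 3 each), and 42 of them ranked higher in glp-4(bn2). From 5 to 20 kb the means were 52.6 in glp-4(bn2) and 52.4 in N2. By chromosome, the difference for the sites within 5000 bp was 4.69 on II, 1.63 on III, 5.96 on IV and 6.06 percentiles on V, on 33, 32, 40 and 19 nearby sites. On IV the nearby sites ranked below the others in every sample, with values of -1.47, -2.46 and -2.99 in glp-4(bn2) and of -9.91, -7.03 and -7.86 in N2.

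**Figure D5:**
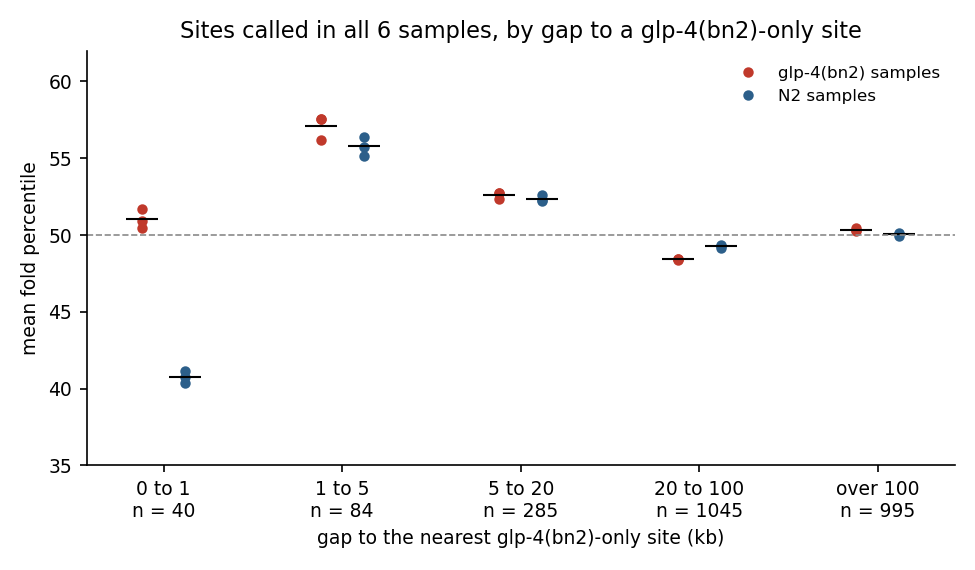
Mean fold percentile (y axis) of the sites of chromosomes II to V called in all 6 samples, by their gap to the nearest glp-4(bn2)-only site (x axis, kb, with the number of sites). Points are samples and bars the means of 3. Within 1 kb the glp-4(bn2) samples lie between 50.4 and 51.7 and the N2 samples between 40.4 and 41.2, and beyond 5 kb the means of the strains lie within 1 percentile of each other.

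The same calculation was made for N2-only sites after the first result was seen. The 590 sites called in all 6 samples within 5000 bp of an N2-only site ranked below the others, by -6.89 ± 0.467 percentiles in glp-4(bn2) and by -3.67 ± 0.201 in N2 (SD, n = 3 samples per strain). The difference was -3.22 (exact permutation test, two-sided, p = 0.1). Relative to other sites, neighbours of N2-only sites thus ranked higher in N2 and neighbours of glp-4(bn2)-only sites higher in glp-4(bn2), without overlap between the samples in either case. Both sets of neighbours were chosen through calls that differed between the strains, so neither result is independent support for the other.

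For position on the arm, no such shift was resolved with 3 samples in each strain. Sites called in all 6 samples ranked lower on arms than in centers, by -13.8 ± 1.79 percentiles in glp-4(bn2) and by -14.1 ± 0.101 in N2 (SD, n = 3 samples per strain). The difference between the strains was 0.22 percentiles (exact permutation test, two-sided, p = 0.8, adjusted 0.8), less than the spread between glp-4(bn2) replicates.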

How the data were processed

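MRG-1 ChIP-seq of glp-4(bn2) and N2 animals was analysed from 6 peak lists, 1 per replicate. According to the submitters' processing notes and the study's methods, the authors aligned read pairs with Bowtie2 2.3.2 to the ce10 genome, and ran MACS2 2.1.0 on every replicate (q-value 0.05, no shifting model, extension to 300 bp). The control used in calling is not given in the sources used here. The deposited columns are a fold enrichment ratio over the estimated background, the −log10 of the p-value and q-value, a score that is 10 times the −log10 q-value rounded down, and start, end and summit.

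Peaks of all samples sharing 1 bp or more were joined into sites, and gaps were counted between site edges. Chromosome length was taken as the highest peak end. Shares carry 95% Wilson intervals, which cover counting error only. The strains were compared on 1 value per sample, by exact two-sided permutation (20 splits). A p-value is the share of splits with a difference at least as large as the observed one. The labels do not say that replicates come from separate cultures, so p-values refer only to these samples. Sites were named by rule: the 3 highest by lowest fold on each chromosome, the weakest, widest and narrowest, and the largest group. Members, lists and tests were chosen with earlier results of these data known. The counting was tested on simulated lists. Read counts per site, which the authors used for differential peaks, were not analysed here. Alternatives were stricter q-values, other merging, peak extent and list length, other numbers of samples, distances and arm borders, a replicate block and omission of each sample in turn. The tools were scipy 1.17.1, pandas 2.3.3, numpy 2.4.6 and Python 3.11.15.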

Additional observations from a re-analysis of the deposited data

How the results depend on the processing

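Of 73 values recomputed on all samples, 52 kept their direction or moved by less than their spread, interval or 1.5 times the count. Of 48 values recomputed without 1 sample, 43 did. The number of glp-4(bn2)-only sites was 223 with a call in all 3 glp-4(bn2) samples, 773 with a call in at least 1, and 901 with windows of 250 bp around summits. Of these 901 windows, 500 overlapped a site called in both strains under the main rule, and 380 of the 385 sites overlapped a window. With the windows the arm share was 33.0%, the share within 5000 bp of a site called in all 6 samples 37.5%, and the neighbour difference -0.99. The cause of that reversal was not tested. The arm share was 61.8% with the center from 33.3% to 66.7% of the length, which widens the arms by construction. The share with a neighbour was 38.8% for sites called in at least 1 sample, 27.1% with no N2 peak within 500 bp, 16.4% and 50.6% at 2 and 10 kb, and 44.7% for neighbours called in at least 1 sample of each strain. The neighbour difference was 8.89 at 2 kb, 3.32 at 10 kb and 6.80 percentiles for sites called in all 3 samples, and 10.4 at 1 kb, a distance added after the values were seen (exact permutation p = 0.1 each). The arm difference between strains, 0.22, was -0.69 with that narrower center.

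Without 1 sample, the sites numbered 270 to 494, the highest without N2 replicate 2. The arm share ranged from 40.4% to 47.2%, the share with a neighbour from 30.4% to 38.9%, the neighbour difference from 3.62 to 7.99, the difference in called length ratio from 0.0619 to 0.139, and the arm difference from -0.53 to 0.98. The neighbour difference exceeded 1.5 times the main value without glp-4(bn2) replicate 1 (7.06) and replicate 2 (7.99), and the called length ratio without replicate 1 (0.139). Samples share replicate numbers across the strains, but deviations of same-numbered samples from their strain means correlated at -0.03, -0.09 and -0.04, so a shared number was not read as a pair. With the replicate block the neighbour difference stayed 4.45 and the arm difference 0.22, with exact permutation p = 0.25 and 1, and the difference in called length ratio stayed 0.0838. No test of 3 samples against 3 could pass 0.05, so the tests say nothing about stability, and the unknown read depth limits what an absent call in N2 shows.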
